A study of Sus scrofa with 15 samples.

Results

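PKHD1 was followed as a single gene, the row of identifier ENSSSCG00000001746, through 15 RNA-seq libraries of LLC-PK1 cells. It is 1 of the 16660 genes with counts and 1 of the 11553 genes tested. LLC-PK1 is an established pig kidney line with features of the proximal tubule. Cells in separate wells received 3 µg of plasmid and were collected 48 h later, with 3 libraries for each of 5 plasmids. The NC plasmid was empty. The WT plasmid carried the normal human PKD2 sequence, Tg1 and Tg2 each carried PKD2 with a single amino acid replaced, and Tg3 carried PKD2 with a premature stop, which removes the C-terminal tail together with the FLAG tag. All 5 plasmids, NC included, shared a backbone with the CAG promoter, which drives the insert in any transfected cell, and the elements labelled floxP, neo and pH11. Expression was transient in 1 cell line, and each library pooled transfected and untransfected cells, so a change in the number of cells expressing a gene and a change in RNA per cell cannot be told apart.

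PKHD1 encodes fibrocystin, also called polyductin, a very large membrane protein of the primary cilium and the apical surface of tubule and bile duct cells. Loss of both copies of the gene causes autosomal recessive polycystic kidney disease. PKD2 encodes polycystin-2, a cation channel of the primary cilium and endoplasmic reticulum that is mutated in the dominant form of the disease, and both proteins have been placed in a common ciliary complex. In the RefSeq annotation of assembly Sscrofa11.1, pig PKHD1 lies on chromosome 7 from position 45447354 to 45925141, a span of 478 kb, and only 92 of the 9554 tested genes with a known span are longer.

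PKHD1 was abundantly counted in every library, with 2831 to 4582 counts, so that counting alone gives a coefficient of variation of 1.48% to 1.88%. Totals per library ranged from 20216200 to 26132196 counts. The PKHD1 coefficient of variation between libraries was 1.26% in Tg1, under that of counting, and from 2.64% in Tg3 to 10.8% in Tg2. Over all genes, the chi-square statistic of 2 libraries of a group, divided by its degrees of freedom, was 2.90 to 46.6, and highest for WT replicates 2 and 3. Of the 14 proximal tubule markers looked up, 11 were tested, including LRP2 and CUBN, the endocytic receptors megalin and cubilin, and all 7 general epithelial markers were tested. Of the 7 fibroblast markers only COL1A2 was tested, at a mean of 947.7 CPM over the 3 NC libraries, and COL1A1, COL3A1, LUM, PDGFRA and PDGFRB each had a mean under 1 CPM. Of the 8 endothelial and leukocyte markers, 4 were under 1 CPM on average, PTPRC, the pan-leukocyte marker, and the endothelial genes CDH5, KDR and TEK. CD3E, a subunit of the T cell receptor complex, averaged 20.3 to 20.7 CPM in every group, and CD68, a macrophage marker, averaged 1.73 to 3.02 CPM. CSF1R and PECAM1 averaged 1.76 and 1.08 CPM in NC and were not tested.

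PKHD1 was highest with the empty plasmid and lowest with Tg1. In NC, PKHD1 was at 178.5, 166.6 and 176.4 CPM (counts scaled to library size with edgeR's TMM factors) in replicates 1, 2 and 3. In WT it was at 172.4, 146.6 and 170.6 CPM. In Tg1 the 3 libraries were within 132.1 to 135.5 CPM, the tightest of the 5 groups. In Tg2 replicates 1 and 2 were at 137.0 and 132.2 CPM, beside the Tg1 libraries, whereas replicate 3 was at 161.3 CPM, beside those of Tg3. In Tg3 the libraries were at 161.8, 153.5 and 157.1 CPM. All 9 libraries of the mutant plasmids lay below all 3 NC libraries, which held for 4.14% of the genes tested. The WT libraries overlapped those of NC. The replicate 2 library was the lowest of its group in 4 of the 5 groups, the exception being Tg1.

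**Figure D1:**
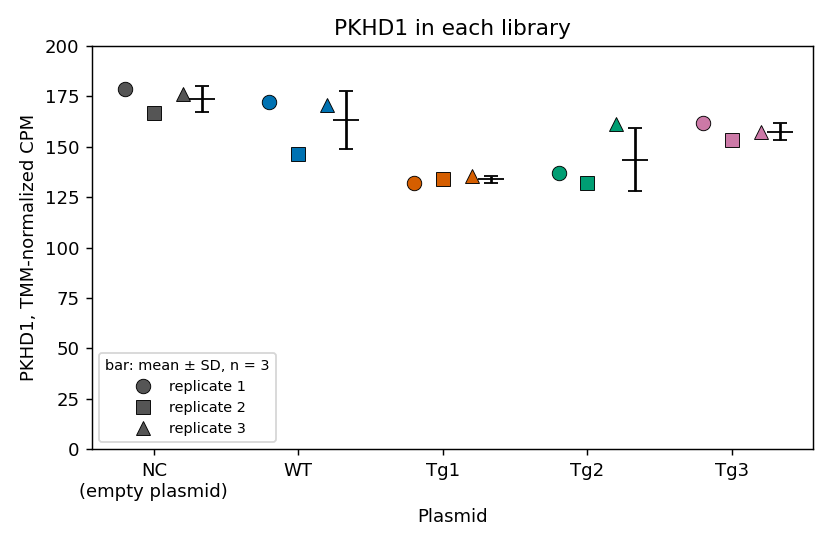
PKHD1 in TMM-normalized CPM (vertical axis, from 0) for each of the 15 libraries, by plasmid; the marker shape gives the replicate number, and the bar beside each group is the mean ± SD of 3 libraries. The mutant libraries sit between 132.1 and 161.8 CPM, all under the lowest NC library at 166.6 CPM, and WT replicate 2 at 146.6 CPM stands apart from the other WT libraries.

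The order of the group means was NC, WT, Tg3, Tg2 and Tg1, at 174 ± 6.35, 163 ± 14.4, 157 ± 4.16, 143 ± 15.6 and 134 ± 1.68 CPM (SD, n = 3 each). No pair of neighbours in this order was separated by the test. The log2 fold change was -0.09 from NC to WT and -0.05 from WT to Tg3. Between Tg2 and Tg3 it was 0.13 in favour of Tg3, and between Tg1 and Tg2 it was 0.10 in favour of Tg2. The edgeR adjusted p-values of these 4 contrasts were 0.9999, 0.698, 0.822 and 0.436, where 0%, 0%, 0% and 0.138% of genes were called.

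Against the empty plasmid, PKHD1 fell in Tg1 and Tg2 and was not called in WT or Tg3. A gene was called when the p-value of the quasi-likelihood test in edgeR, adjusted by Benjamini and Hochberg's method over the 11553 genes, was 0.05 or less and the log2 fold change was at least 0.26 in size. In Tg1 the log2 fold change was -0.38 (SE, standard error, 0.07, edgeR adjusted p = 0.0217), a level 23.0% lower, with a 95% interval from 30.6% to 14.4% lower. In this comparison 1.19% of the genes tested were called and 1.01% were called lower, and PKHD1 had the 44th smallest p-value among the genes that were lower. In Tg2 the log2 fold change was -0.28 (SE 0.07, edgeR adjusted p = 0.0270), a level 17.4% lower, with an interval from 25.7% to 8.27% lower. Calls were far more common there, at 8.43% of the genes tested, 3.7% of them lower, and 7.89% of all genes had a more negative fold change than PKHD1. In both comparisons the libraries of the groups did not overlap, with an exact permutation test, two-sided, at p = 0.1, the smallest value that 3 libraries against 3 allow. All 3 libraries lower than all 3 NC libraries were found for 14.8% of genes in Tg1 and 18% in Tg2.

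In Tg3 all 3 libraries also lay below NC (exact permutation test, two-sided, p = 0.1), as for 13.9% of genes in that comparison. The log2 fold change was -0.14 (SE 0.07, edgeR adjusted p = 0.30), with a 95% interval from -0.29 to 0.01. In WT the log2 fold change was -0.09 (SE 0.07, edgeR adjusted p = 0.9999), with an interval from -0.24 to 0.06, and 7 of the 9 pairs of a WT and an NC library had the lower value in WT (exact permutation test, two-sided, p = 0.4). The tests called 0% of genes in WT and 0% in Tg3, although edgeR gave 524 and 2089 genes an unadjusted p under 0.05, and DESeq2 in its place called 11 and 52 genes. The intervals of WT and Tg3 therefore include no change and also decreases of 15.4% and 18.4%. All 4 comparisons use the same 3 NC libraries.

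**Figure D2:**
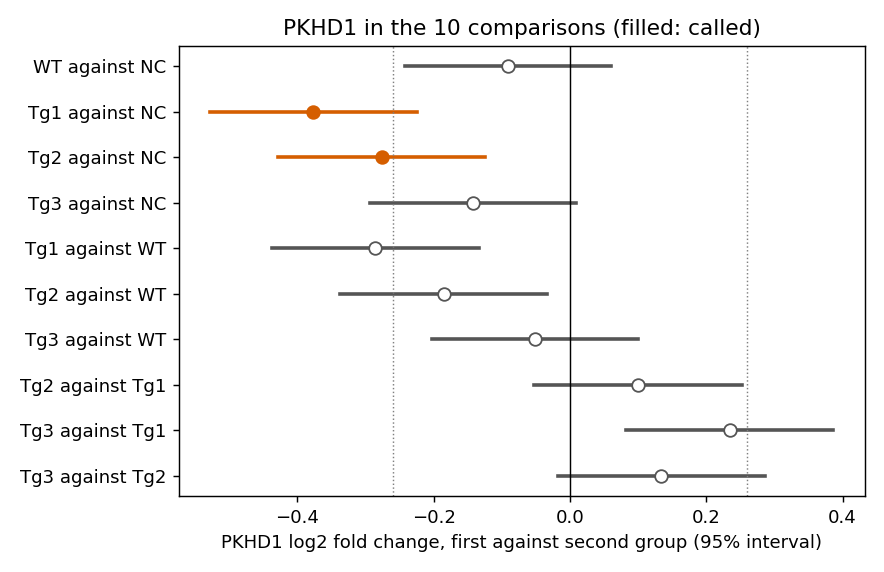
Log2 fold change of PKHD1 with its 95% interval (horizontal axis) in the 10 comparisons between plasmids; filled points are called, and dotted lines mark the fold-change threshold of 0.26. The 2 called values are Tg1 and Tg2 against NC, at -0.38 and -0.28.

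The comparisons with WT ask whether a mutant differs from overexpression of normal PKD2. PKHD1 was lower in Tg1 than in WT by a log2 fold change of -0.29 (standard error 0.07) without overlap of the libraries, as for 8.45% of genes, but its edgeR adjusted p was 0.108, and 0.0692% of genes were called. PKHD1 was 130th of the 11553 genes by p-value there. In Tg2 against WT the log2 fold change was -0.19 (SE 0.07, edgeR adjusted p = 0.0878), where 5.92% of genes were called. The value for Tg1 passed both thresholds without WT replicate 2, the lowest WT library (log2 fold change -0.36, adjusted p = 0.0114 from edgeR). The value for Tg2 did so without Tg2 replicate 3, the highest Tg2 library (log2 fold change -0.28, adjusted p = 0.0171 from edgeR). For Tg1 it also passed with DESeq2 in place of edgeR (adjusted p = 0.0207). Tg3 and WT differed by -0.05, with an interval from -0.20 to 0.10, where 0% of genes were called. Among the mutants the widest gap was between Tg3 and Tg1, at 0.23 (SE 0.07, edgeR adjusted p = 0.121), with all Tg3 libraries higher, as for 13.1% of genes, in a comparison that called 0.615% of genes.

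Both calls against NC depended on single libraries. For Tg1 the call was lost without NC replicate 1, NC replicate 3 or any of the 3 Tg1 libraries, with log2 fold changes from -0.38 to -0.36 and adjusted p-values from 0.0523 to 0.109 from edgeR. For Tg2 it was lost without NC replicate 1, NC replicate 3, Tg2 replicate 1 or Tg2 replicate 2, with log2 fold changes from -0.27 to -0.22 and adjusted p-values from 0.0895 to 0.110 from edgeR. Without Tg2 replicate 3 the log2 fold change in Tg2 was -0.37 (edgeR adjusted p = 0.00731), close to that of Tg1.

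The fold changes varied with the genomic span of the genes, most widely in Tg1, and PKHD1 is among the longest. In Tg1, the 3656 tested genes spanning under 20 kb had a median log2 fold change of 0.05 against NC, with 30.1% of them lower. The 1036 genes of 100 to 200 kb had a median of -0.07, and the 281 other genes of 300 kb or more had a median of -0.09, with 74.4% lower. In Tg1, 0 of the genes under 20 kb were called lower and 15 higher, against 12 lower (4.27%) and 0 higher at 300 kb or more. Of all genes tested, 1.01% were called lower and 0.182% higher in that comparison. The medians of the span classes were less spread in the other comparisons, from 0.02 to -0.06 in Tg2, from 0.01 to -0.04 in Tg3 and from 0.01 to -0.02 in WT. Calls varied with span in Tg2 as well. At 300 kb or more, 36 genes (12.8%) were called lower and 9 higher in Tg2. Under 20 kb, 82 (2.24%) were called lower and 226 higher. Of all tested genes with a known span, 3.69% were called lower in Tg2. The value of PKHD1 lay below the median of its own class in all 4 comparisons. Of the 281 genes of 300 kb or more, 13 had a more negative fold change than PKHD1 in Tg1 and 47 in Tg2, or 4.63% and 16.7%.

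**Figure D3:**
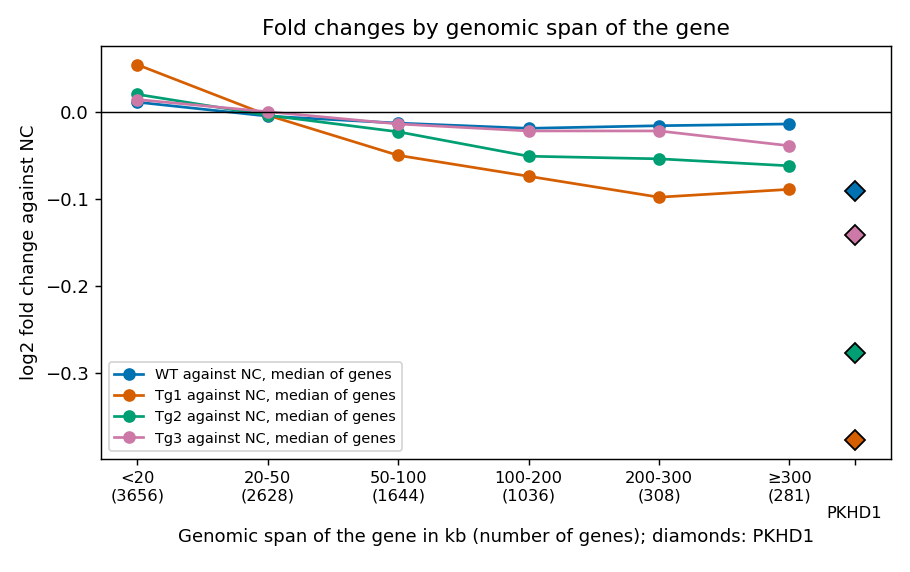
Median log2 fold change against NC (vertical axis) of the tested genes grouped by genomic span in kb (horizontal axis, number of genes in parentheses), 1 line for each PKD2 plasmid, with PKHD1 itself as diamonds at the right. The Tg1 line runs from 0.05 at under 20 kb to -0.09 at 300 kb or more, and the PKHD1 diamond of Tg1 lies at -0.38.

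The same split was present library by library. The median log2 level of the 1625 genes of 100 kb or more minus that of the 3656 genes under 20 kb, each gene centred on its mean over the libraries, was 0.049 to 0.060 in the 3 NC libraries. It was -0.005 to 0.038 in WT, 0.003 to 0.033 in Tg3, -0.036 to 0.010 in Tg2 and -0.110 to -0.057 in Tg1. The group means of this measure had the order of the PKHD1 means, NC, WT, Tg3, Tg2 and Tg1. In WT, Tg1 and Tg2 the library lowest in this measure was also the lowest in PKHD1, and in NC and Tg3 it was not. After the trend with span was taken out of each library, an alternative chosen after seeing the data, PKHD1 had log2 fold changes of -0.26 in Tg1 (edgeR adjusted p = 0.0808) and -0.21 in Tg2 (adjusted p = 0.0346 from edgeR, under the fold-change threshold). Neither comparison was then called, and the part of span in the PKHD1 difference was not tested further.

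The genes whose pattern was most like that of PKHD1 over the 15 libraries were mostly long. Among the tested genes with a symbol, Pearson's r of log2 CPM with PKHD1 was highest for GLIS3 (0.965), DCX (0.959), DNAH5 (0.955), CLCN5 (0.952), CLASP1 (0.951), MAN1A2 (0.949) and NIPBL (0.948), with 1 further gene among the 8 highest not reported here. These are descriptions over 15 libraries that share their depth and scaling, and 324 of 11552 genes had r over 0.8. Of these genes all but CLCN5, at 30.5 kb, spanned over 100 kb, from 162.2 kb for MAN1A2 to 545.0 kb for GLIS3. Of the 9554 tested genes with a known span, 1625 besides PKHD1 spanned 100 kb or more. GLIS3 encodes a zinc finger transcription factor whose loss gives cystic kidneys, and CLCN5 a chloride-proton exchanger of proximal tubule endosomes that is mutated in Dent disease. DNAH5 encodes a dynein heavy chain of motile cilia, and DCX a microtubule-binding protein best known from migrating neurons. After the group means were subtracted, r with PKHD1 was 0.95 for GLIS3, 0.913 for CLCN5 and 0.902 for DNAH5.

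These genes were picked for their likeness to PKHD1 over the same 15 libraries, so their differences between plasmids follow in part from the choice and are given as descriptions, with no test. GLIS3 was at 121.9, 121.9 and 123.7 CPM in Tg1 and at 151.7, 138.5 and 155.7 CPM in NC. In Tg2 it was at 126.9 and 125.6 CPM in replicates 1 and 2 and at 148.3 CPM in replicate 3. The log2 fold changes in Tg1 and Tg2 against NC were -0.28 and -0.15 for GLIS3, -0.72 and -0.55 for DCX, and -0.43 and -0.37 for DNAH5. They were -0.39 and -0.23 for CLCN5, -0.23 and -0.17 for CLASP1, a microtubule plus-end protein, -0.26 and -0.21 for MAN1A2, a mannosidase of the Golgi, and -0.26 and -0.19 for NIPBL, which encodes the cohesin loader. DCX had the widest differences of these 7 genes, wider than those of PKHD1 itself.

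**Figure D4:**
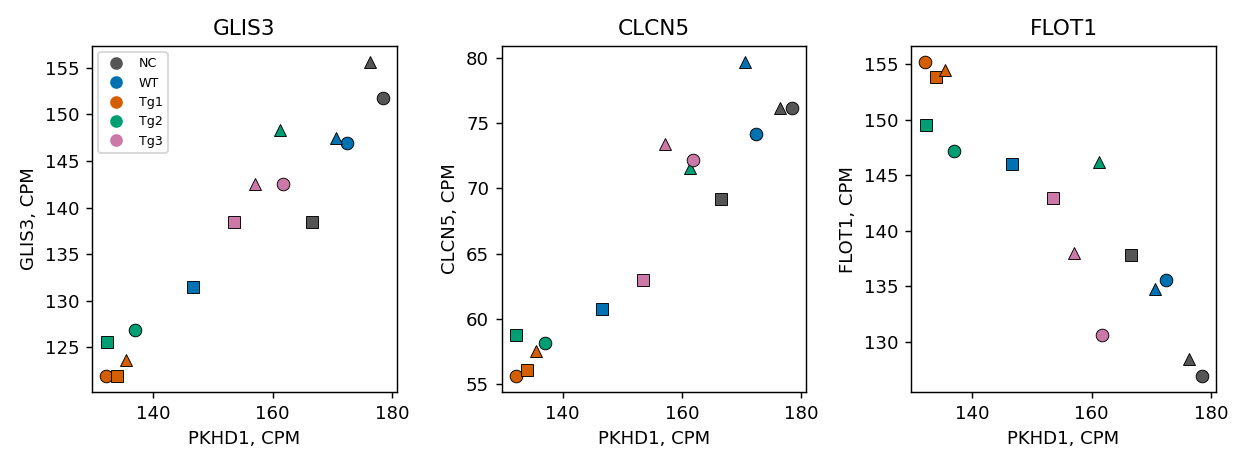
CPM of GLIS3, CLCN5 and FLOT1 (vertical axes) against CPM of PKHD1 (horizontal axes), 1 point per library, coloured by plasmid, with circles, squares and triangles for replicates 1, 2 and 3. GLIS3 and CLCN5 rise with PKHD1 (r of 0.965 and 0.952), FLOT1 falls (r of -0.916), and Tg1 with Tg2 replicates 1 and 2 form the end with the lowest PKHD1.

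At the opposite end, r with PKHD1 was lowest for BZW2 (-0.922), SLC39A1 (-0.916), FLOT1 (-0.916) and AKR1A1 (-0.911), none of which spanned over 59.6 kb. Such spans are common: of the 9554 tested genes with a known span, 3656 were under 20 kb and 2628 from 20 to 50 kb. After the group means were subtracted, r was -0.844 for BZW2, -0.778 for SLC39A1, -0.684 for FLOT1 and -0.713 for AKR1A1. SLC39A1 encodes a zinc importer, FLOT1 the membrane scaffold flotillin-1 and AKR1A1 an aldehyde reductase. FLOT1 ranged from 126.9 to 137.8 CPM in NC and from 153.9 to 155.2 CPM in Tg1, all higher than NC, as for 11.9% of genes. Its log2 fold change in Tg1 was 0.24 and those of the other 3 were from 0.11 to 0.19, again as a description of genes chosen on these libraries.

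Among genes of inherited cystic kidney disease, PKHD1 was the one that edgeR called in Tg1. Of the 38 genes listed, PKHD1 included, 33 were tested. The Tg1 call is 3.03% of the tested list against 1.01% of all genes called lower. It is PKHD1 itself, so this share is no result about the other members. The median log2 fold change of the list was -0.06 against 0.00 for all genes. In Tg2 the list median was -0.09 against -0.01. There 4 members, PKHD1 included, were called, all lower, or 12.1% of the list against 3.7% of all genes called lower. Besides PKHD1 these were RPGRIP1L, IQCB1 and CEP290, 3 nephronophthisis genes whose proteins sit at the ciliary transition zone or basal body. RPGRIP1L was at 22.9, 25.0 and 28.6 CPM in Tg2 and at 36.0, 33.9 and 37.1 CPM in NC, a log2 fold change of -0.48 (SE 0.10, edgeR adjusted p = 0.0183). CEP290 had a log2 fold change of -0.27 (adjusted p = 0.0283) and IQCB1, the least abundant of them at 3.50 ± 0.10 CPM (SD, n = 3) in NC, one of -0.53 (edgeR adjusted p = 0.0336). Against WT, RPGRIP1L and WDR19, an intraflagellar transport gene, were called lower in Tg2, or 6.06% of the list, where 2.61% of all genes were called lower. In WT and Tg3 against NC, 0 of the 33 were called, where 0% of all genes were called. An unadjusted p-value under 0.05 from edgeR was found for 1 and 4 of the 33. It was found for 524 and 2089 of the 11553 genes tested. With the trend with span removed, an alternative chosen after seeing the data, the list median was -0.025 in Tg1 and -0.065 in Tg2. The list then had 0 members called in Tg1, where 20 of all genes in that fit were called, and 2 called lower in Tg2.

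PKD1, which encodes the partner of polycystin-2 and is the main gene of dominant polycystic kidney disease, was not called in either comparison. Its mean was 80.5 ± 5.41 CPM with NC, 75.4 ± 4.18 CPM with Tg1 and 83.9 ± 7.97 CPM with Tg2 (SD, n = 3 each), giving log2 fold changes of -0.09 and 0.06 (SE 0.07 each, edgeR adjusted p = 0.450 and 0.547). The sign in Tg2 turned without Tg2 replicate 3 (-0.016). PKHD1L1, the paralog of PKHD1, had under 0.3 CPM in every library and was not tested. PKD2, pig or human, was not analysed here, so the targeted gene does not check the labels.

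Of the 14 tested genes listed for a link to fibrocystin, 0 were called in Tg1 or Tg2 against NC. There 1.19% and 8.43% of all genes were called. An unadjusted p-value under 0.05 from edgeR was found for 4 and 5 of the 14. It was found for 2304 and 4069 of the 11553 genes tested. DESeq2 called 0 of the 14 in either comparison. Without single libraries, 0 to 1 were called higher in Tg2 against NC. Against WT, SMURF1 was called higher in Tg2, or 7.14% of the list, where 5.92% of all genes were called. Among the 30 tested intraflagellar transport and BBSome genes, 1 was called lower against NC in Tg1 and 2 in Tg2, or 3.33% and 6.67% against 1.01% and 3.7% of all genes, and 0 were called higher. The median of this list was -0.06 in Tg1 and -0.13 in Tg2, against 0.00 and -0.01 over all genes. In each comparison 22 of the 30 genes were below 0, as were 49.8% and 51.2% of the 9554 tested genes with a known span. With the trend with span removed, an alternative chosen after seeing the data, the median was -0.008 in Tg1 and -0.125 in Tg2. Of the 29 genes in that fit, 0 were then called in Tg1, where 20 of all its genes were called, and 1 was called lower in Tg2. DYNC2H1, the heavy chain of the retrograde ciliary motor, was at 2.52, 2.24 and 2.49 CPM in Tg1 and at 6.07, 4.23 and 3.77 CPM in NC, a log2 fold change of -0.95 (SE 0.22, edgeR adjusted p = 0.0446). This call was lost in each of the 6 fits without a library, with edgeR adjusted p-values from 0.0654 to 0.166. DESeq2 called 0 of the 30 genes in Tg1, where it called 244 of all genes, and 3 lower in Tg2. DYNC2LI1, a light intermediate chain of the same motor, and IFT80 fell in Tg2, with log2 fold changes of -0.41 and -0.30 (edgeR adjusted p = 0.0231 and 0.0496).

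Of the 21 tested genes of EGF receptor, cAMP and mTOR signalling, edgeR called 1 in Tg1, PRKAR2A, or 4.76% against 1.01% of all genes called lower. DESeq2 and the fit with the replicate block each called 2 lower in Tg1, where they called 244 and 246 of all genes. PRKAR2A encodes a regulatory subunit of protein kinase A, averaged 59.8 ± 1.79 CPM with Tg1 against 77.0 ± 1.97 CPM with NC (SD, n = 3 each), and remained called in all 6 fits without a library. Its log2 fold change was -0.36 (SE 0.04, edgeR adjusted p = 0.00454), and it was also called lower against WT (-0.32, edgeR adjusted p = 0.0258). In Tg2, EREG and HBEGF, which encode the EGF receptor ligands epiregulin and heparin-binding EGF-like growth factor, rose with log2 fold changes of 0.61 and 0.35 (edgeR adjusted p = 0.0403 and 0.0270), where 4.73% of all genes were called higher. PDE1A, a phosphodiesterase that breaks down cyclic nucleotides, fell with a log2 fold change of -0.37 (edgeR adjusted p = 0.0231). HBEGF was also higher in WT than in NC, by a log2 fold change of 0.32 that was not called (edgeR adjusted p = 0.608). Between Tg2 and WT it differed by 0.03 (edgeR adjusted p = 0.83). For EREG the log2 fold change in WT against NC was 0.03.

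In Tg2, where PKHD1 fell, 6 proximal tubule markers fell as well, and edgeR called 0 of the 11 in Tg1. Of the 11 tested, LRP2, CUBN, SLC34A1, SLC5A2, the apical glucose transporter, ANPEP and VIL1 were called lower in Tg2. This was 54.5% of the list against 3.7% of all genes. In Tg1, 3 of the 11 had an unadjusted p-value under 0.05 from edgeR, as had 2304 of the 11553 genes tested. DESeq2 called 2 of the 11 there, and 244 of all genes. In Tg2, 2 of the 11 had a fold change above 0, among them DPP4, a brush border peptidase, at 201.3 ± 23.5 CPM against 158.3 ± 15.6 CPM in NC (SD, n = 3 each). The edgeR fit of all libraries called 0 markers higher in Tg2, and DESeq2, the replicate block and the fit of the compared groups each called 1. The medians were -0.32 in Tg2, -0.15 in Tg1, -0.24 in Tg3 and -0.02 in WT, against medians over all genes of -0.01, 0.00, 0.00 and 0.00. LRP2 was at 219.9, 213.6 and 271.7 CPM in Tg2 and at 300.9, 294.8 and 302.4 CPM in NC, with replicate 3 again the highest Tg2 library. The summed level of the markers, in CPM without TMM scaling, was 1224 to 1371 in NC, 1155 to 1381 in WT, 1092 to 1235 in Tg1, 988 to 1200 in Tg2 and 1025 to 1137 in Tg3. The lowest sums were in Tg2 and Tg3. In the same CPM without TMM scaling, PKHD1 was at 130.4, 127.6 and 160.2 in Tg2. It was at 134, 132.4 and 133.5 in Tg1 and at 161.2, 150.6 and 157.7 in Tg3. In Tg3, 0 of the 11 were called, where 0% of all genes were called. An unadjusted p-value under 0.05 from edgeR was found there for 7 of the 11, and for 2089 of the 11553 genes tested. Of the 7 epithelial markers, CDH1, which encodes E-cadherin, rose in Tg2 with a log2 fold change of 0.30 (edgeR adjusted p = 0.0286). This call is 14.3% of the list against 4.73% of all genes called higher, and 0 were called lower. Of the 5 tested distal and collecting duct markers, edgeR called 1 lower in Tg2 and 0 higher. The called marker was SLC12A1, the sodium-potassium-chloride transporter of the thick ascending limb. It averaged 10.2 ± 0.79 CPM in Tg2 against 14.5 ± 1.65 CPM in NC (SD, n = 3 each). The list median was -0.03 against -0.01 over all genes, and 2 of the 5 were above 0. SCNN1G, not called, averaged 14.6 ± 4.97 CPM in Tg2 against 6.42 ± 2.72 CPM in NC. The replicate block and the fit of the compared groups each called 1 marker higher, and DESeq2 called 0 higher. Without single libraries, 0 to 1 were called lower and 0 to 1 higher. The part of these cell state genes in the PKHD1 difference was not tested.

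All 15 genes named from these lists as called in Tg2 besides PKHD1 and SLC12A1 lost the call without NC replicate 1, NC replicate 3, Tg2 replicate 1 or Tg2 replicate 2, with adjusted p-values from 0.0625 to 0.191 from edgeR, and IFT80 and IQCB1 also lost it without NC replicate 2, at 0.0720 and 0.0511. Leaving out the 5 replicate 2 libraries was an alternative chosen after seeing the data, with 19 of all genes called in Tg1. The cystic kidney disease list then had 0 calls in Tg1 and 2 lower and 1 higher in Tg2. The ciliary list then had 0 in Tg1 and 2 lower and 1 higher in Tg2, and the proximal tubule markers 5 lower in Tg2.

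**Figure D5:**
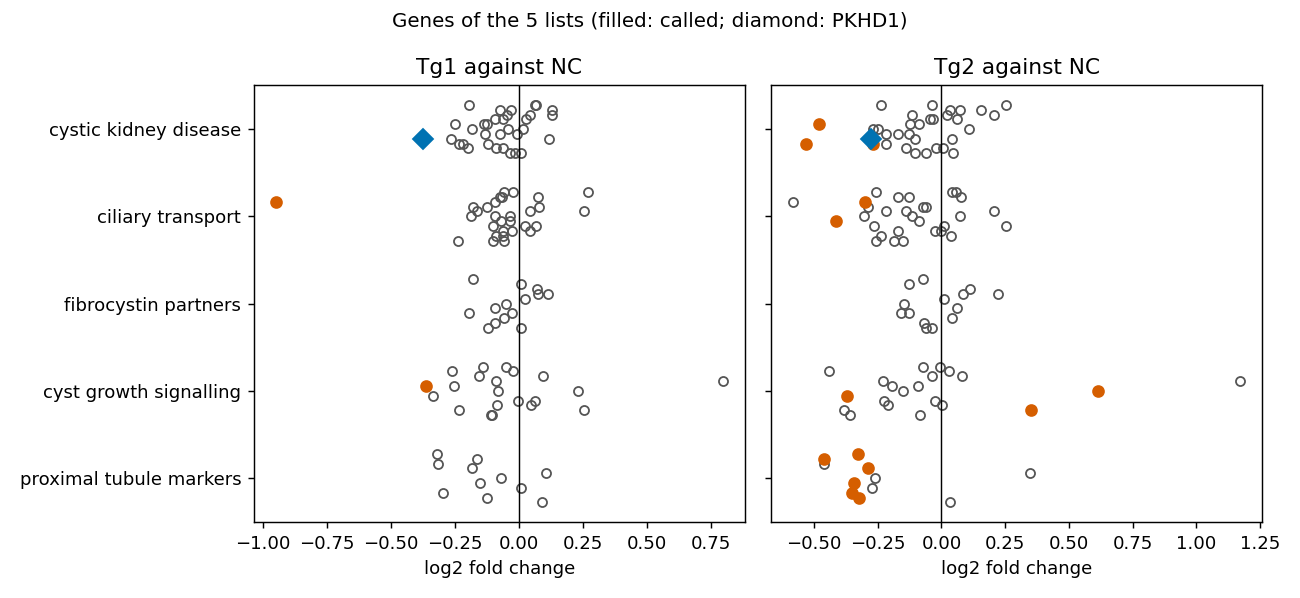
Log2 fold change against NC (horizontal axes) of the tested genes of 5 lists in Tg1 (left) and Tg2 (right), 1 point per gene, offset vertically for legibility; filled points are called and the diamond is PKHD1. In Tg1 PKHD1 (-0.38) is the one gene called by edgeR of the cystic kidney disease list, and in Tg2 6 of the 11 proximal tubule markers are called lower.

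Neither of the PKHD1 neighbours on chromosome 7 described here, MCM3 and PAQR8, was called in Tg1 or Tg2. MCM3, a subunit of the replicative helicase that lies 159.5 kb beyond PKHD1, had log2 fold changes of 0.05 in Tg1 and 0.258 in Tg2 (edgeR adjusted p = 0.729 and 0.0286), the latter just under the fold-change threshold. PAQR8 was low, at 4.11 CPM on average without TMM scaling, and had 0.39 and 0.66 (edgeR adjusted p = 0.450 and 0.111). TFAP2B, on the other side, had 2 counts in all 15 libraries together.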

How the data were processed

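RNA from 15 wells of LLC-PK1 cells was sequenced, 3 wells for each plasmid, and the labels gave each library its group and number. Salmon was run by the authors on pig transcripts from Ensembl, and the deposited values are raw counts, whole numbers for each gene. How transcripts were joined into genes is not given in the sources used here, and reads from similar transcripts may be shared. The wells belong to a single experiment, so p-values measure the spread between wells.

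Tests covered the 11553 of 16660 genes whose mean CPM was at least 2 (99.83% of all counts) with edgeR 4.0.16 in R 4.3.3, TMM scaling, glmQLFit and glmQLFTest, all libraries fitted at once with a mean per group, and adjustment by Benjamini and Hochberg's method. Thresholds were 0.05 on the adjusted p and 0.26 on the size of the log2 fold change, those of the study's methods, which used DESeq2. Log2 CPM used a prior count of 2. Symbols were paired with 13373 identifiers from a gene name table, and genomic spans came from RefSeq for Sscrofa11.1 by symbol (9554 tested genes, 82.7%). Spans stood in for the protein lengths first planned. The fits were checked on simulated counts.

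Genes named were PKHD1, list members called against NC (up to 6 per list), and the 8 most and 4 least correlated genes with a symbol. PKD1, PKHD1L1, WDR19, SMURF1, COL1A2, the cell type markers and the neighbouring genes were named after their values were seen. The gene and the lists were chosen with earlier results of these data known. Same-numbered libraries of WT and NC deviated together from their group means (r = 0.154, 0.544 and 0.457), a hint of pairing from the data alone. In no other comparison were all 3 correlations over 0.1, but single ones were high. Against NC they were 0.161, 0.210 and -0.304 for Tg1. They were -0.137, 0.256 and 0.511 for Tg2 and 0.032, 0.490 and 0.361 for Tg3. The replicate block changed no PKHD1 call between WT and NC. Alternatives were DESeq2 1.42.0, its size factors, other filters, a fit of the compared groups, no fold threshold, the replicate block and leaving out libraries. The exact PKD2 substitutions and some genes and a list covered by the rule are not reported here.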

Additional observations from a re-analysis of the deposited data

How the results depend on the processing

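The PKHD1 fold changes against NC kept their direction and call under DESeq2, its size factors, both filters, a fit of the compared groups, no fold threshold and the replicate block. Leaving out single libraries gave -0.41 to -0.36 for Tg1 and -0.37 to -0.22 for Tg2 against NC, -0.36 to -0.24 and -0.28 to -0.13 for Tg1 and Tg2 against WT. Among alternatives chosen after seeing the data, both calls were lost with the trend with span removed (Tg1 -0.259, Tg2 -0.21). Both were also lost without the 5 replicate 2 libraries. There Tg1 was at -0.41 (edgeR adjusted p = 0.0510). Tg2 was at -0.256 (edgeR adjusted p = 0.0390), just under the fold-change threshold. The call of Tg1 was lost without group Tg3 in the fit (-0.38). Tg1 against WT was called with DESeq2 (-0.29) and with the replicate block (-0.28). PKD1 was not called against NC, and its sign in Tg2 turned without Tg2 replicate 3 (-0.016 to 0.12 without single libraries). The causes were not tested.

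Counts of called genes moved more. Without single libraries they were 0 to 25 for WT, 16 to 83 for Tg1 and 0 to 1878 for Tg2 against NC, 0 to 852 for Tg1, 0 to 2421 for Tg2 and 0 to 1321 for Tg3 against WT, 0 to 117 for Tg2 and 3 to 115 for Tg3 against Tg1. With DESeq2 they were 11 (WT), 244 (Tg1) and 52 (Tg3) against NC, 77 (Tg1), 1184 (Tg2) and 116 (Tg3) against WT, and 162 (Tg2) and 139 (Tg3) against Tg1. With the replicate block they were 246 (Tg1), 1624 (Tg2) and 11 (Tg3) against NC, 66, 1578 and 111 against WT, and 162 and 108 against Tg1. With no fold threshold they were 264 and 1643 for Tg1 and Tg2 against NC, 1099 for Tg2 against WT and 118 for Tg3 against Tg1. With no filter on low counts they were 2 for Tg1 against WT and 7 for Tg2 against Tg1. A fit of the compared groups gave 0 for Tg1 and Tg2 against WT, 0 for Tg2 against Tg1 and 32 for Tg3 against Tg1. Without the replicate 2 libraries they were 6 (WT) and 19 (Tg1) against NC, 34, 1832 and 1 for Tg1, Tg2 and Tg3 against WT, and 0 and 0 for Tg2 and Tg3 against Tg1. Without group WT they were 210 and 1541 for Tg1 and Tg2 against NC and 32 for Tg2 against Tg1, and without Tg3 36, 589, 0 for Tg1 against WT, 167 for Tg2 against WT and 0 for Tg2 against Tg1. Without NC they were 0 and 129 for Tg1 and Tg2 against WT and 3 and 37 for Tg2 and Tg3 against Tg1. Without Tg2 or Tg1 they were 0 for Tg1 and 255 for Tg2 against WT. With the trend with span removed they were 20 for Tg1 against NC, 0 and 4 for Tg1 and Tg3 against WT, and 1 and 20 for Tg2 and Tg3 against Tg1. With 3 wells a group, exact tests of a single gene cannot go below 0.1.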
